A study of Homo sapiens with 5 samples.

Results

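Binding of the muscle transcription factor MYF5 was set against acetylated chromatin in RH18, an established human line of rhabdomyosarcoma, a muscle-like childhood cancer, of the kind without a fusion gene. The data were every entry of a pair of peak lists from chromatin immunoprecipitation followed by sequencing (ChIP-seq): 11136 MYF5 peaks and 46408 regions of histone H3 acetylated at lysine 27 (H3K27ac). They make up 57544 of the 100703 entries in the 3 lists of the series, the third list being H3K27ac in the line RD, which was not used here. The labels name 5 samples, input DNA of both lines among them. RH18 cells carried no added gene or drug per the labels, grew in serum-containing medium and were fixed with formaldehyde; the antibodies came from Santa Cruz for MYF5 and from Active Motif for H3K27ac. Each list came from 1 library, so the values have no replicate error, and the exact Clopper-Pearson and order-statistic 95% intervals below cover counting error only. Peaks of 1 library are not replicates, and no test between conditions was possible.

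MYF5 belongs to the basic helix-loop-helix family of myogenic regulators, together with MYOD1, MYOG and MYF6. These proteins pair with E proteins such as TCF3 and TCF12 and bind the E-box, a short palindrome-like DNA word with the letters CANNTG. H3K27ac is deposited on nucleosomes that flank active promoters and enhancers, while the bound factor itself often sits on DNA from which nucleosomes have been displaced. ID1, ID2 and ID3 lack a DNA-binding domain and hold E proteins in pairs that cannot bind DNA.

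A MYF5 peak was placed by its summit, the base of highest signal as the peak caller gave it. H3K27ac regions covered 32.5 Mb with a median width of 474 bp, and their median fold over local background was 13.98. MYF5 peaks had a median width of 256 bp and a median fold of 11.2, reaching 70.6 at the highest peak. The folds are the authors' values and describe peaks within 1 list only. The muscle label of the line was checked by H3K27ac regions within 2 kb of gene starts. Such a region was found at 7 of 8 muscle lineage markers (MYF5, MYF6, MYOG, PAX7, CDH15, CHRNA1 and DES), and in the longer lists described below at 17 of 19 muscle regulators and 16 of 21 contractile and synaptic genes. CKM, TTN, MYH8, MYL1, MUSK and MEF2C had none, nor had the marker MYOD1, its nearest region lying 4.32 kb from the start as rounded to the nearest kb. Of 8 markers of other cell types (ALB, PTPRC, SPI1, HBB, KRT5, CDX2, GFAP and SOX10), 1 had such a region, GFAP, an intermediate filament gene of glial cells. In the longer lists, 18 of 19 growth genes and 7 of 7 genes of all cells also had such a region. The counts in the longer muscle lists are therefore not specific to muscle. An acetylated start is not a measure of RNA.

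Promoters of some genes that the results below return to are shown here, so that the letters MYF5 can read are in view. Each window runs from 250 bases before to 50 bases after the RefSeq gene start in GRCh38.p14, 5′ to 3′ on the gene's strand, and capitals mark every CANNTG. The first 5 genes had a MYF5 summit within 2 kb of the start. They encode a subunit of the muscle acetylcholine receptor (CHRNA1, chr2:174764423-174764722, minus strand), a myosin-binding protein (MYBPH, chr1:203175777-203176076, minus strand), the myogenic factor myogenin (MYOG, chr1:203085963-203086262, minus strand), an inhibitor of E proteins (ID2, chr2:8681806-8682105, plus strand) and a glycolytic enzyme of all cells (GAPDH, chr12:6535014-6535313, plus strand). The last 2 genes lie in strongly acetylated domains that held no MYF5 summit: SLC7A5, an amino acid transporter (chr16:87869458-87869757, minus strand), and MNT, a basic helix-loop-helix partner of MAX (chr17:2401011-2401310, minus strand).
CHRNA1: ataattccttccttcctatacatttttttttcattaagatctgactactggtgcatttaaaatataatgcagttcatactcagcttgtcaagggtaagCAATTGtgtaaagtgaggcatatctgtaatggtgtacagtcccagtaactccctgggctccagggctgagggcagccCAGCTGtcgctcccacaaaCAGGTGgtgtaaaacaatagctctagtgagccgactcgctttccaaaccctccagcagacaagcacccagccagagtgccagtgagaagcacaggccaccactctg
MYBPH: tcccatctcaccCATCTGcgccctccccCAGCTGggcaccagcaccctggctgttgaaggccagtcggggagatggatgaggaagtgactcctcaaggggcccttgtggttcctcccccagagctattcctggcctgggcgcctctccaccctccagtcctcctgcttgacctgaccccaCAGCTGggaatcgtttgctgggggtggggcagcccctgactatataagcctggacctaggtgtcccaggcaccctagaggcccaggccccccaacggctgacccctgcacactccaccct
MYOG: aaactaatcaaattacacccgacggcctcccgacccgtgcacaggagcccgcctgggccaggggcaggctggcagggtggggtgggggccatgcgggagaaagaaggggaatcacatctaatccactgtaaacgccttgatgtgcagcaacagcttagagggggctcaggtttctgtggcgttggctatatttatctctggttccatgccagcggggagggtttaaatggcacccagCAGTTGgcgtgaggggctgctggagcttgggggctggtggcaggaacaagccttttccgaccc
ID2: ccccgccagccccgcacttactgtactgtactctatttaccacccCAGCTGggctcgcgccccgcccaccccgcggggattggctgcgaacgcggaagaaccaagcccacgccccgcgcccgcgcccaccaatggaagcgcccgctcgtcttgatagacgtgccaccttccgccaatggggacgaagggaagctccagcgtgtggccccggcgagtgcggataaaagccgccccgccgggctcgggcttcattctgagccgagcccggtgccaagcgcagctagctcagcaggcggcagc
GAPDH: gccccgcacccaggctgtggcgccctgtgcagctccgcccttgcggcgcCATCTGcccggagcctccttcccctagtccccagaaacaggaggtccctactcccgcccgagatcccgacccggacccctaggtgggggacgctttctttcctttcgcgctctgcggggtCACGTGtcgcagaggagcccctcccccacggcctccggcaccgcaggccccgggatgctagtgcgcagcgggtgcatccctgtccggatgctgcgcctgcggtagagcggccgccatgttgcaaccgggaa
SLC7A5: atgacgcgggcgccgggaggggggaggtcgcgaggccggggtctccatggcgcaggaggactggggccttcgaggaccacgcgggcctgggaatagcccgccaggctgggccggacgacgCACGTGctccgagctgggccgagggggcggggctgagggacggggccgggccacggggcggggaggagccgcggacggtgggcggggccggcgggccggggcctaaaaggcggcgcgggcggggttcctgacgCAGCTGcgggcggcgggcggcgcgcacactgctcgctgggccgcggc
MNT: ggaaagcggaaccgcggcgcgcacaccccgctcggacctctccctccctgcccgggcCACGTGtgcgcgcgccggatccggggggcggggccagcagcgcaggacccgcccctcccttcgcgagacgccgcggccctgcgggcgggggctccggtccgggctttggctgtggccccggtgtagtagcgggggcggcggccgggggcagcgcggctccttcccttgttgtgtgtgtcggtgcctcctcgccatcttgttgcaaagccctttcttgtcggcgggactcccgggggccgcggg

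Words were counted on both strands. The word CAGCTG, itself a form of the E-box, occurred 2 times in the MYBPH window and 1 time each in those of CHRNA1, ID2 and SLC7A5, and CAGGTG 1 time in that of CHRNA1. The MYOG window held a single CAGTTG. The GAPDH, MNT and SLC7A5 windows each held CACGTG, and those of GAPDH and MNT lacked CAGCTG. The window of ZFP36L1, counted but not printed, also had a summit within 2 kb of its start, at a fold of 38.5. That window held 2 CANNTG words, and neither CAGCTG nor CAGGTG on either strand. Among 35116 RefSeq promoter windows of the same length, 17.9% held CAGCTG, 20.6% held CAGGTG or its complement on the other strand, CACCTG, and 68.7% held any CANNTG. The word CAGCTG thus stood in a promoter without a summit in its domain (SLC7A5), and was missing from the windows of MYOG, GAPDH and ZFP36L1. The peak lists use the build hg19 and the windows use GRCh38, so no summit was placed on a base of these sequences. A match is a description of the letters, and no match says only that they are not in the window.

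More than 1 in every 2 MYF5 summits lay in acetylated sequence, and the others lay at widely varying distances. Of 11136 summits, 6150 (55.2%, interval 54.3 to 56.2%) fell inside an H3K27ac region. Another 1041 (9.35%) lay within 150 bp of a region edge and 838 (7.53%) over 150 and up to 500 bp. Farther out lay 375 (3.37%) over 500 and up to 1000 bp away and 645 (5.79%) at over 1000 and up to 5000 bp. Beyond that, 1283 (11.5%) lay up to 50000 bp away and 804 (7.22%) over 50000 bp away. The 4986 summits outside regions had a median distance of 1877 bp (interval 1556 to 2313) to the nearest region, with quartiles of 203 and 24165 bp. That distance depends on how long the H3K27ac list is: against the 20000 regions of largest −log10 p it was 17041 bp. The farthest summit was 4131.65 kb from any region.

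The median MYF5 peak was lower inside acetylated regions than in any class of distance outside, with overlapping ranges. The median MYF5 fold was 10.2 inside regions (quartiles 8.24 and 13.5), 12.5 within 150 bp outside (9.74 and 17.9), 12.99 at over 500 and up to 1000 bp and 13.1 for the summits over 50000 bp away. Among the 5000 MYF5 peaks of largest −log10 p, 47.6% of summits lay inside a region.

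Summit density was similar on both sides of a region edge, higher deeper inside and lower farther outside. In the outermost 50 bp inside regions there were 92.4 summits per Mb, against 86.6 in the first 50 bp outside. Inward, density was 180 per Mb at 100 to 150 bp from the edge, 158 at 200 to 250 bp, 270 at 400 to 450 bp, 375 at 850 to 900 bp, the highest step, and 276 at 950 to 1000 bp, depths that wide regions alone have. Outward, it was 54.1 per Mb at 150 to 200 bp, 17.7 at 450 to 500 bp and 6.54 at 950 to 1000 bp. Regions as a whole held 189 summits per Mb, and the sequence between the first and last region of each chromosome, outside regions, held 1.71. Density thus had no step at the deposited region edge.

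**Figure D1:**
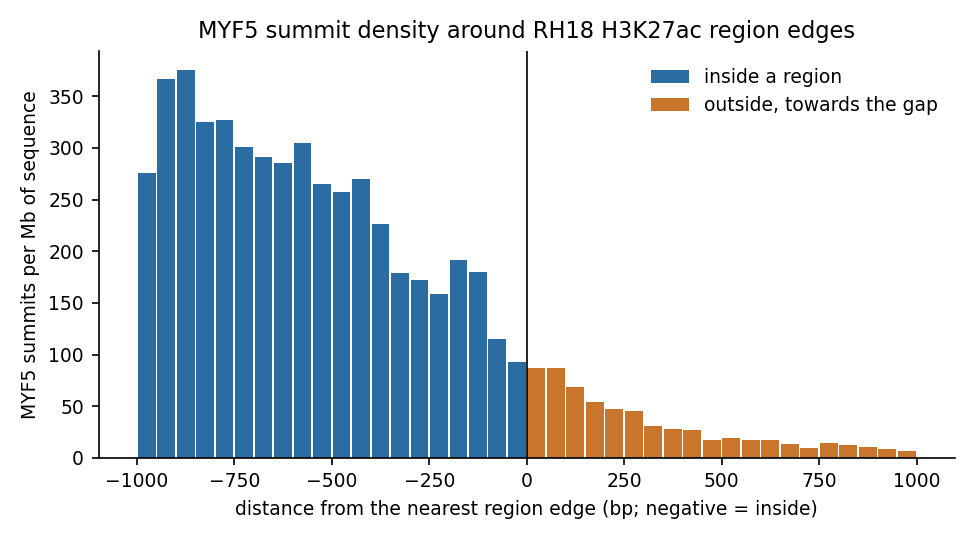
MYF5 summits per Mb of sequence (vertical axis) in 50 bp bins of distance from the nearest H3K27ac region edge (horizontal axis, bp), negative inside a region and positive outside. The density was 92.4 per Mb just inside the edge and 86.6 just outside, and fell outward to 6.54 at 950 to 1000 bp.

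MYF5 summits lay a median of 370 bp from the closest H3K27ac summit (interval 359 to 380). This distance was 199 bp for summits inside regions (quartiles 89 and 374 bp) and 2233.5 bp for those outside. In steps of 50 bp, 823, 896 and 825 MYF5 summits lay in the first 3 steps from an H3K27ac summit. The next 3 steps held 698, 706 and 760, and the step from 450 to 500 bp held 318. Summits outside regions numbered 0, 5 and 45 in the first 3 steps and were most frequent at 250 to 300 bp, with 283. MYF5 summits were thus most frequent near the H3K27ac summit, while 2589 (23.2%) lay over 2000 bp from one. In the other direction, 26% of the 46408 H3K27ac summits had a MYF5 summit within 2 kb.

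Within a region, MYF5 summits were spread over all depths and were most frequent in the middle. The 4176 regions of at least 500 bp with a single MYF5 summit were each divided into 5 equal layers from the edge to the middle. From the outermost layer to the innermost, the MYF5 summits split into 10.1%, 18.3%, 21.5%, 23.9% and 26.2%. The H3K27ac summits of the same regions split into 0.575%, 9.94%, 28.2%, 30.005% and 31.3%. Region edges were called from the H3K27ac signal itself, which keeps H3K27ac summits away from the outermost layer, so the second split is given for orientation and not as a comparison.

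A smaller group of summits lay in dips between acetylated regions. With a region ending within 500 bp on both sides, 536 summits (4.81% of all, interval 4.42 to 5.23%, and 10.8% of those outside regions) sat in such a gap. Against the 20000 H3K27ac regions of largest −log10 p the share was 1.69%. Short gaps were the most densely bound: gaps of 1 to 250 bp held 153 summits per Mb, close to the density inside regions, and the next class, up to 500 bp, held 139. Density was 94.7 per Mb in gaps over 500 and up to 1000 bp, 21.8 in those over 2000 and up to 5000 bp and 1.22 in those over 12.5 kb. Even so, most short gaps were empty, since 187 of 7685 gaps of at most 250 bp (2.43%) held a summit.

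Seen from the acetylated side, MYF5 occupied a minority of regions. Of 46408 H3K27ac regions, 5561 (12%, interval 11.7 to 12.3%) held at least 1 MYF5 summit. The share follows the length of the lists: it was 4.96% with the 5000 MYF5 peaks of largest −log10 p, when 73 regions held 2 or more, and 23.2% among the 20000 strongest H3K27ac regions. A single summit was found in 5062 regions (10.9%), 2 in 426, 3 in 61, 4 in 7 and 5 in 5. Regions with 2 or more numbered 499, which is 1.08% of all regions and 8.97% of the bound ones, and 1088 of the 6150 summits inside regions (17.7%) shared their region with another. In regions with 2 summits, the higher MYF5 fold was a median of 1.41 times the lower (quartiles 1.16 and 1.80).

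Bound regions were wider and more strongly acetylated than unbound ones. Median width was 437 bp without a summit, 1013.5 bp with 1, 1879 bp with 2 and 3370 bp with 3. The median H3K27ac fold of the same groups was 12.6, 34.9, 55.7 and 63.1. The median MYF5 fold did not go the same way, at 10.3 in regions with 1 summit, 9.62 with 2 and 9.33 with 3.

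Width alone gives a region more room to hold a summit, so density per kb was counted beside it. The share of regions bound was 2.54% under 250 bp, 3.84% from 250 to under 500 bp, 12.7% from 500 to under 1000 bp, 29.4% from 1000 to under 2000 bp, 47.5% from 2000 to under 4000 bp and 73.3% (interval 67.4 to 78.6%) in the 258 regions of 4000 bp or more. Density was 0.109 summits per kb in the narrowest class, 0.185 from 500 to under 1000 bp and 0.239 from 1000 to under 2000 bp, and no higher in wider regions (0.228 and 0.224). From 1000 bp upward, the share bound thus went up while summits per kb did not. Over all regions the density was 0.189 per kb (interval 0.184 to 0.194).

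**Figure D2:**
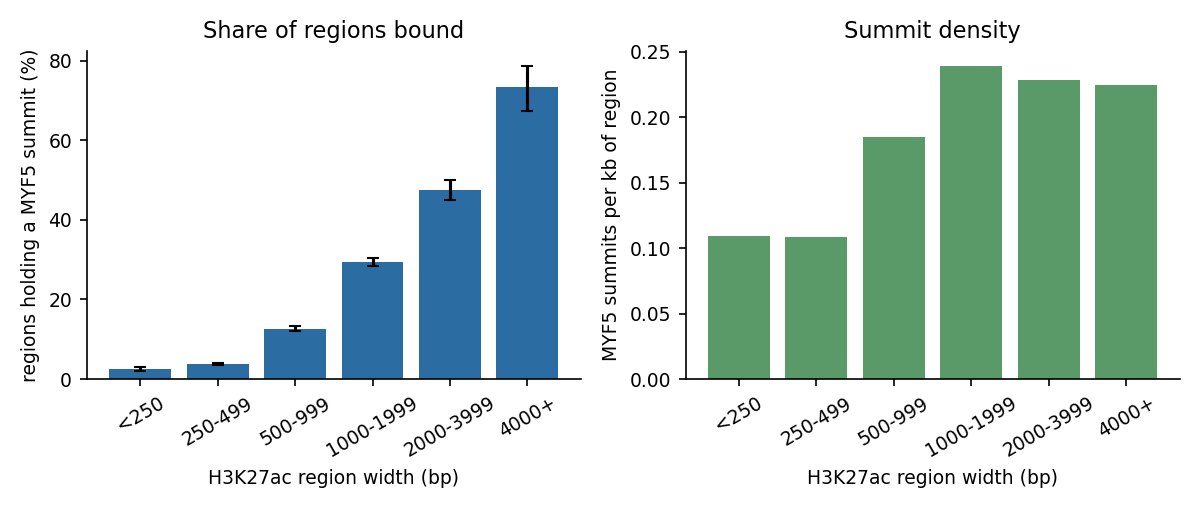
H3K27ac regions by width class (horizontal axes, bp): percent of regions holding a MYF5 summit with exact 95% intervals as bars (left), and MYF5 summits per kb of region (right). The share bound went from 2.54% to 73.3%, while density levelled at 0.239, 0.228 and 0.224 per kb in the 3 widest classes.

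At like width, regions of high H3K27ac fold were bound more often. Regions were divided into 3 equal classes by fold, at 10.2 and 20.5. Among regions of 500 to under 1000 bp, 4.47%, 6.74% and 20.9% of the low, middle and high class held a summit. Among regions of 1000 to under 2000 bp these shares were 17.2%, 14.3% and 34.6%, and the intervals of the low and middle class overlapped (13.1 to 21.95% and 12.6 to 16.1%). Among regions of 2000 bp or more, 23.6% of the middle and 53.1% of the high class were bound, and the low class held only 10 regions.

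Most unbound regions were not next to a bound site. The median distance from the 40847 unbound regions to the nearest MYF5 summit was 28144 bp, with quartiles of 5023.5 and 97067.5 bp. A summit lay within 500 bp of 3213 of them (7.87%) and within 5000 bp of 24.9%, and 10006 (24.5%) had none within 100 kb.

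Neighbouring MYF5 summits were usually far apart, and short spacings made up the largest share of pairs inside shared regions. Over all 11113 neighbouring pairs the median spacing was 62067 bp (interval 59236 to 65608), with quartiles of 11269 and 212650 bp. The 589 pairs in the same H3K27ac region had a median of 663 bp (interval 616 to 698; quartiles 455 and 1036 bp), and 73.2% were within 1000 bp. With the 5000 MYF5 peaks of largest −log10 p these medians were 159924 bp and 1023 bp. The shortest spacing of all was 203 bp, and no 2 MYF5 entries overlapped. Pairs in different regions had a median of 50093 bp, pairs with 1 summit inside and 1 outside 88852 bp, and pairs outside 80320.5 bp. Short spacings were not limited to shared regions. Of 901 pairs within 1000 bp, 431 shared a region, 124 lay in different regions, 170 had 1 summit outside and 176 lay outside altogether. That pairs sharing a region lie close follows in part from the region's width.

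Crowding was also counted without requiring a shared region. Another summit lay within 1000 bp of 19.4% of the summits inside regions and of 9.67% of those outside. Within 5000 bp the shares were 36.5% and 23.6%. Crowded summits were not the highest: the median MYF5 fold was 9.82 for summits with another within 1000 bp and 11.5 for those with none within 50000 bp. The fold is a ratio over local background, and the part of that background in this difference was not tested.

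**Figure D3:**
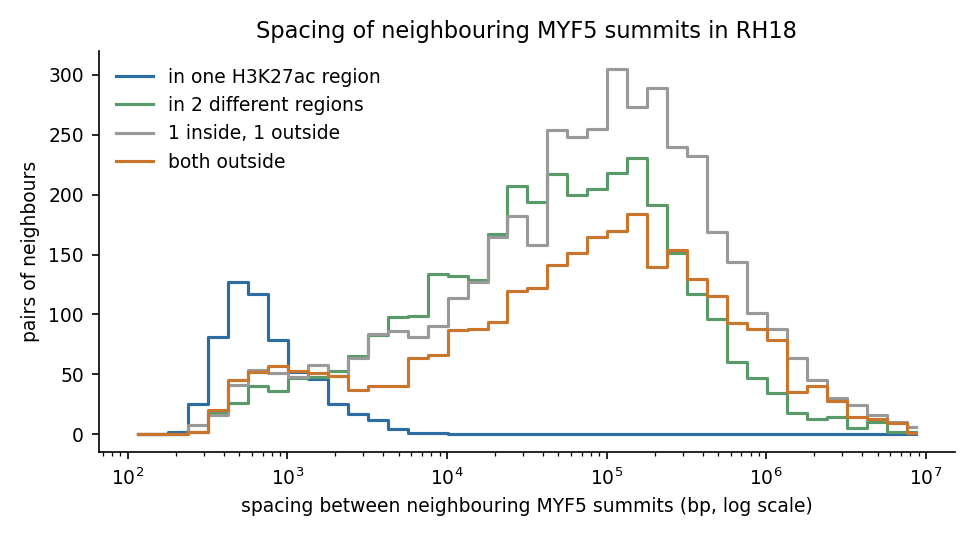
Number of neighbouring MYF5 summit pairs (vertical axis) by spacing in bp (horizontal axis, log scale), split by whether the pair shared an H3K27ac region, lay in 2 regions, had 1 summit outside, or lay outside altogether. Pairs in the same region had a median of 663 bp, and each other class a median of 50093 bp or more. Each other class also held pairs within 1000 bp.

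Regions within 12.5 kb of each other were joined into 18842 domains and ranked by summed fold times width, a ranking within this list. A MYF5 summit lay in the span of 5104 domains (27.1%), or of 13.2% with the 5000 MYF5 peaks of largest −log10 p. Domain spans held 7677 summits (68.9% of all), of which 19.9% lay between the regions of the domain. Of the domains, 3744 held 1 summit, 1110 held 2 or 3, 195 held 4 to 6, 41 held 7 to 10 and 14 held 11 or more. The 500 top domains held 1580 of these 7677 summits, with a median of 3 summits each (quartiles 1 and 4). That is 14.2% of all summits, and the same domains held 21.97% of the acetylated bases. The shares are not alike, since all acetylated bases lie in domains but not all summits do.

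Domains are named here by their number of summits, and not by summits per kb. COL1A1 with SGCA held 2.24 summits per 10 kb of acetylated sequence and the histone cluster 5.58. The domain over COL1A1, the fibrillar collagen gene, and SGCA, a sarcoglycan of the muscle membrane (chr17:48224019-48299856, hg19), held 11 summits, all inside acetylated regions. It ranked 4 among all domains, and its MYF5 folds ran from 7.67 to 36.1 with a median of 13.6. The domain over ADORA1, MYBPH and CHI3L1, beside MYOG (chr1:203085144-203185145), held 11 summits, 7 of them inside regions, with folds from 6.99 to 43.97. The promoter letters of MYBPH and MYOG shown above come from this neighbourhood.

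Further domains held 10 or 11 summits. RAD51B, a DNA repair gene that neighbours ZFP36L1 (chr14:69013757-69080608), held 11, with 6 inside regions, and ranked 5. ZFP36, which encodes an RNA-destabilising protein related to ZFP36L1, held 11 (chr19:39880778-39936826), all inside regions. LFNG, a glycosyltransferase that modifies Notch (chr7:2510382-2571196), and the stretch from LZTS2 to KAZALD1 (chr10:102746452-102827776) likewise held 11, all inside regions. GNB1L and TXNRD2 (chr22:19831850-19901409) held 10 in the domain of rank 3.

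In some of these domains many summits lay between the acetylated regions. At PER1, a clock gene, with VAMP2 and AURKB (chr17:8042248-8130900), 4 of 11 summits lay inside regions, and the median MYF5 fold was 31.6. The intergenic domain between NPVF and MIR148A (chr7:25874710-25906266) held 11 summits over 8.67 kb of acetylated sequence, 5 of them inside regions. By contrast, the larger histone gene cluster (chr6:26141670-26254726) held 19 summits, 18 of them inside regions, with folds from 6.65 to 36.8 and a median of 15.5.

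The remaining 5 of the 15 domains with most summits all lay on chromosome 12 and stood on a raised local background. Background under each MYF5 peak was estimated from its deposited fold and p-value, relative to the list's median, and called raised at 4 times or more. COL2A1 with TMEM106C (chr12:48328386-48399147) held 29 summits, the highest count, at a median fold of 4.97 and a background of 6.98 times the median. CACNA2D4, a calcium channel subunit gene, with LRTM2 (chr12:1904427-1955787) held 23 at 7.26 times the median background. RAPGEF3, SLC48A1 and HDAC7 held 15, VDR, the vitamin D receptor gene, held 14, and the stretch between MYRFL and CNOT2 held 11, at 6.52, 8.82 and 7.62 times. In the other 10 domains the estimate was 0.763 to 2.71 times. COL2A1 and CACNA2D4 ranked 1192 and 723 by summed H3K27ac fold times width; the H3K27ac background, estimated in the same way, was 8.07 and 5.34 times its median there, and a higher background lowers the fold that the rank uses.

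On chromosome 12 as a whole, 32.2% of 656 summits stood on a raised background, against at most 5.62% on any other chromosome. The part of the raised background in these counts was not tested. Over the genome 395 summits had a raised background, and 57.5% of them lay inside regions (interval 52.4 to 62.4%), against 55.1% of the rest.

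**Figure D4:**
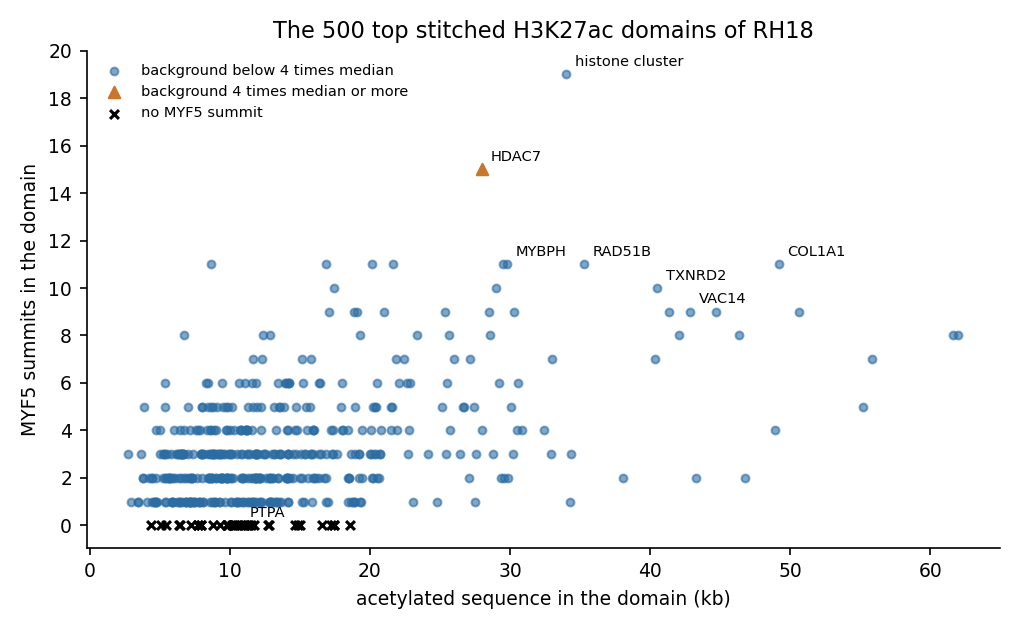
MYF5 summits per domain (vertical axis) against acetylated sequence in kb (horizontal axis) for the 500 top H3K27ac domains; crosses are the 36 domains without a summit and triangles those whose median MYF5 background was 4 times the list median or more. The histone cluster held 19 summits, COL1A1 with SGCA held 11, and the unbound domain at PTPA held 10.8 kb of acetylated sequence.

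Single regions of 5 summits were found at VAC14, TXNRD2, ZFP36L1, GAPDH and 1 unnamed place on chromosome 1. The VAC14 region (chr16:70720177-70732865) was 12689 bp wide with MYF5 folds from 6.91 to 12.8. The GNB1L and TXNRD2 region (chr22:19858453-19876650) had folds from 10.7 to 15.96. The region at ZFP36L1 (chr14:69257935-69263234) was uneven, with 1 summit at 38.5 and the lowest at 7.57. The GAPDH region (chr12:6641086-6646150) had folds from 6.91 to 10.9 over 5065 bp.

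The tightest runs of 5 neighbouring summits spanned 2689 to 3259 bp. Of these 10 runs, 3 lay in the COL2A1 domain at 5.30 to 6.98 times the median background. The others included the start of MSC, which encodes the helix-loop-helix repressor musculin (chr8:72754866-72758078, 4 of 5 summits inside regions, folds 5.18 to 25.5). A run between FOXA2 and SSTR4 (chr20:22902945-22906050) had folds up to 43.1, and 1 of its summits lay 1769 bp from any region. A run between DNAH5 and TRIO (chr5:14035338-14038544) had folds from 9.25 to 31.6. Another at ADAMTS5, a matrix protease gene (chr21:28336173-28339352), had folds from 4.22 to 18.2.

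Some of the strongest acetylated domains held no MYF5 summit. Among the 500 top domains 36 were unbound (7.2%, interval 5.09 to 9.83%). With domains joined at 25000 or 5000 bp the share was 4% or 12%, and with the 5000 MYF5 peaks of largest −log10 p it was 32.8%. The median acetylated length of the 36 was 10.4 kb against 11.9 kb in the 464 bound ones, and their median H3K27ac fold, averaged over regions, was 40.8 against 42.1. They were thus similar in these respects, while their median span was shorter, 22.6 kb against 33.3 kb.

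The best-ranked unbound domain, rank 32, lay at PTPA, a phosphatase activator gene, beside IER5L (chr9:131899928-131911028). It held 10.8 kb of acetylated sequence at a mean fold of 112, and the nearest summit was 29475 bp away. The next unbound domains lay at ADAMTS2, a procollagen protease gene (chr5:178688328-178712722, rank 86), at SUFU with the start of TRIM8 (chr10:104353089-104406704, rank 95) and at GNAI2 with the start of SEMA3B (chr3:50265039-50307250, rank 97). SUFU is a negative regulator of Hedgehog signalling, and GNAI2 is an inhibitory G protein subunit. Summits lay 92983, 13531 and 58697 bp away from them.

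Several further unbound domains were remote from any summit. SKI with MORN1 (chr1:2202116-2263256; SKI restrains TGF-beta signalling) was 169550 bp from one, SPON2 beside CTBP1 (chr4:1185256-1204687) 493132 bp, and LINC00963 (chr9:132243631-132262800) 303128 bp. SLC7A5 (chr16:87855919-87905313) held 18 regions and 17.4 kb of acetylated sequence without a summit, the nearest being 56393 bp away. MNT (chr17:2295406-2316278) held 11.4 kb, with the nearest summit at 55470 bp. The rest of the 15 highest were ARHGAP23, the keratin gene KRT7, INF2, a stretch downstream of RXRA, KIRREL1 and the interval between CRYAA and SIK1, with nearest summits 35416 to 157857 bp away.

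Among single regions, the widest without a summit was at PLEC, the plectin gene (chr8:145008147-145020758), 12612 bp wide and 4860 bp from a summit. ADAMTS2 followed with 9786 bp and NEK6 with 8409 bp. The unbound region at PDGFRB, a growth factor receptor gene (chr5:149515476-149522294), was 6819 bp wide, yet a summit lay 330 bp from its edge. Of the 10 widest unbound regions, 4 (KRT80, SARDH, PDGFRB and MIDN) had a summit within 1318 bp, and 7 were in a domain that held a summit elsewhere.

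Fixed gene lists were then read in windows of 50 kb on both sides of each gene start. For comparison, 47.2% of the 11909 genome tiles of 100 kb with any H3K27ac held a MYF5 summit, and 19.5% held 2 or more. The share depended on how much acetylation a tile held: 27.96% with under 1 kb, 50.5% with 1 to 5 kb, 79.9% with 5 to 10 kb, 90.4% with 10 to 20 kb and 99.01% with more. Tiles without H3K27ac held a summit in 4.09% of cases. List medians are therefore given with the acetylated length. Windows of a single list differed widely in that length, so no class of tiles matches a whole list, and no window-by-window matching was done.

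Of 19 muscle regulators, 18 windows were acetylated and 15 held a summit (78.9%), with a median of 2 summits and 6.002 kb of acetylated sequence. Tiles of 5 to 10 kb, the class of the list median, also held a median of 2 summits, with 79.9% bound. Single windows of the list held 0 to 33.1 kb, so that class does not match the list as a whole. Summits within 2 kb of the start were found at 9 of the 19 genes, against 13 of 21 contractile and synaptic genes, 7 of 19 growth genes and 6 of 7 genes of all cells. These 9 were MYF5, MYF6, MYOG, MSC, TCF3, ID1, ID2, ID3 and CDH15. The share over all gene starts was not computed, so counts within 2 kb of a start have no genome-wide value beside them. The MYOG window held 11 summits, 9 inside regions, over 33.1 kb of acetylated sequence, with folds from 6.83 to 22.2. Windows of MSC, ID1 and ID3 held 8 each, and that of CDH15, a cadherin of muscle precursors, held 6.

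The MYF5 gene itself carried MYF5 peaks, in a window it shared with MYF6. That window held 3 summits with folds of 8.28 to 12.5 and 4 H3K27ac regions, the strongest at a fold of 112. MYOD1 had 23 regions and 14.3 kb of acetylated sequence in its window, but its 3 summits, with folds of 8.23 to 28.1, began 19.7 kb from the start. PAX7 (6.002 kb acetylated) and MYMK (8.98 kb), a gene of myoblast fusion, were acetylated without a summit. PAX3 had 1 summit, outside regions, at a fold of 25.7. MEF2C had neither H3K27ac nor a summit in its window.

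Contractile and synaptic muscle genes were bound in 19 of 21 windows, with a median of 3 summits and 5.39 kb of acetylated sequence. Tiles of 5 to 10 kb had a median of 2, with 79.9% bound. The list median lies near the lower limit of that class, and tiles of 1 to 5 kb had a median of 1, with 50.5% bound. Single windows held 0 to 34.7 kb. The troponin genes TNNI1 and TNNT2, whose windows overlap, held 12 and 10 summits, with folds up to 43.2. DES, the muscle intermediate filament gene, held 8, all inside regions, and TNNT3 held 7 over 34.7 kb of acetylated sequence. CHRNA1 held 1 summit at a fold of 20.3, in a region near its start. Other windows were sparse: TTN had 0.229 kb of acetylated sequence and no summit, MYL1 had neither mark, and CKM had 1 summit outside its 2 regions. At MUSK, the receptor kinase of the neuromuscular junction, 2 summits with folds of 13.1 and 13.5 lay outside H3K27ac, 1 of them within 2 kb of the start.

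Growth genes were bound in 14 of 19 windows, with a median of 1 summit and 4.79 kb of acetylated sequence. Tiles of 1 to 5 kb likewise had a median of 1, and 50.5% of them were bound. The list median lies near the upper limit of that class, and tiles of 5 to 10 kb had a median of 2, with 79.9% bound. CDK4 held 8 summits, 4 of them inside regions, and FGFR4, a growth factor receptor gene, held 4 inside regions. MYC held 3 in 1 region of 4329 bp. CCND1, YAP1, TEAD1 and TEAD4 were acetylated without a summit, and PDGFRA had neither mark. At MDM2 the 3 summits had folds of 2.41 to 4.63 on a background of 31.9 times the median, and at CDK6 the background was 3.97 times; the part of background in these peaks was not tested.

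Genes of all cells held MYF5 summits too. Of 7 genes of all cells, 6 held summits, with a median of 6 over a median of 12.99 kb of acetylated sequence, and 6 had one within 2 kb of the start. Tiles of 10 to 20 kb had a median of 3, with 90.4% bound. GAPDH held 11 and ACTB 7, while B2M held none. Of 14 markers of other cell types, 9 windows held any H3K27ac, with a median of 0.316 kb, and 3 held a summit: INS with 3, in a window shared with IGF2, GFAP with 2 and SPI1 with 1. None of the 14 had a summit within 2 kb of the start.

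**Figure D5:**
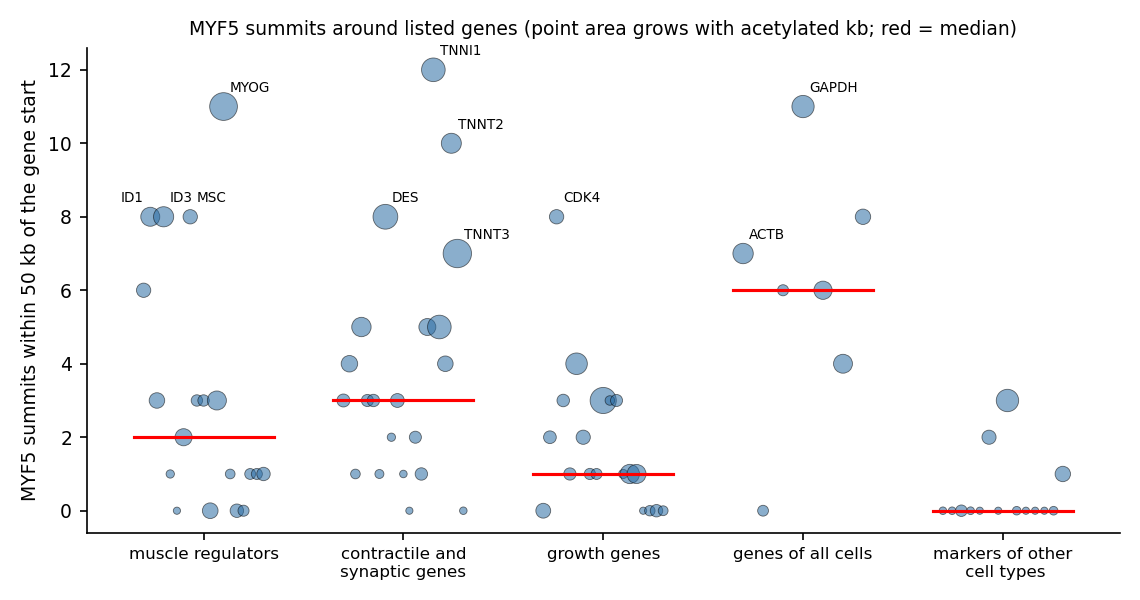
MYF5 summits within 50 kb of each listed gene's start (vertical axis), by gene list (horizontal axis); each point is a gene, its area grows with acetylated kb in the window, and red lines are list medians. Medians were 2 for muscle regulators, 3 for contractile and synaptic genes, 1 for growth genes, 6 for genes of all cells and 0 for markers of other cell types.

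The meeting of both marks also differed along the genome. The share of summits inside regions ran from 36.7% on chromosome 4 (128 summits) to 76.4% on chromosome 19 (552 summits). Summits per 100 H3K27ac regions ran from 11.2 on chromosome 4 to 34.96 on chromosome 20. Chromosomes 4, 9 and X had the fewest summits per region and 4.02%, 5.29% and 5.18% of their regions bound, against 17.8% on chromosome 20.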

How the data were processed

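MYF5 and H3K27ac ChIP-seq of RH18 gave 1 deposited list each, in hg19; the input samples were not used. Per the submitters' processing notes, BWA 0.7.10 and MACS2 2.1.0 were among the tools, without a stated control or threshold. Read totals are not given in the sources used here. Each deposited entry holds the authors' fold (a ratio over local background), −log10 p-value, −log10 q-value, score and summit offset; q-values and scores were not used further. The lowest deposited −log10 p-value was 9.09 for MYF5 and 7.09 for H3K27ac, so the lists end at unlike thresholds.

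Values were computed in Python 3.11.15 (scipy 1.17.1 for intervals, numpy 2.4.6, pandas 2.3.3), and plots made in matplotlib 3.10.9. Background under a peak was solved from its fold, taken as pileup plus 1 over background plus 1, and its p-value, taken as a Poisson tail; the larger solution was kept. For some of the strongest H3K27ac regions, those at VAC14 and PTPA among them, the solution was the same very low value, 0.0104 times the median. The estimate is not usable there. The code was tested on simulated data. For background these were made with the same formulas, so that test does not show whether the formulas suit the deposited peaks. The members, lists and rules were chosen with earlier results of these data known.

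Loci named were the 15 domains with most summits, the 15 highest without one, the 10 regions with most summits, the 10 widest without, the 10 tightest runs of 5 summits, and the gene lists. Gene positions in hg19 were written from general knowledge to the nearest kb, with the chromosomes of all 81 list genes checked against RefSeq. TUBB lies in a stretch of chromosome 6 without entries and was not counted. Some list genes enter the counts but are not reported here by name. Alternatives covered list thresholds, overlap rules, joining distances, chromosomes left out and raised background.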

Additional observations from a re-analysis of the deposited data

How the results depend on the processing

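No paired analysis was possible because each group has 1 library. Of 72 alternatives, 37 stayed within the counting interval or, for counts, 1.5 times. These include leaving out chromosome 12 or 6, the peak midpoint and ranking domains by width. Shorter lists changed most values; counts and densities of summits fall with fewer MYF5 entries by construction, and the cause of the other changes was not tested.

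With the 5000 MYF5 peaks of largest −log10 p, 47.6% of summits were inside regions, the median distance outside was 1366 bp and that to an H3K27ac summit 404 bp. In that setting 4.96% of regions were bound, 73 held 2 or more, spacing was 1023 bp within a region and 159924 bp over all pairs, 13.2% of domains were bound, 32.8% of top domains were not, density was 0.0731 per kb, and 6.12% of summits lay in gaps. With the 20000 H3K27ac regions of largest −log10 p, these were 46.9%, 17041 bp and 633 bp, with 23.2% of regions and 33.99% of domains bound, 11.2% of top domains unbound, 0.244 per kb and 1.69% in gaps.

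Counting any overlap of a MYF5 peak gave 64.1% inside and 14.4% of regions bound, and counting summits within 500 bp gave 72.1%. Joining regions within 1000 bp gave 18.8% bound, 839 with 2 or more, a spacing of 847 bp and 0.179 per kb. Domains joined at 5000 bp were bound in 23.3% and top domains unbound in 12%; at 25000 bp these were 31.5% and 4%. Gap flanks of 250 and 1000 bp gave 2.51% and 6.91%. Leaving out MYF5 peaks of raised background, chosen after seeing the data, gave 11.6% of regions bound, a spacing of 67849 bp and 0.182 per kb.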

Other observations

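Both lists had no entry over a stretch of chromosome 6 next to the histone genes: the H3K27ac list skipped from 28411347 to 33538767 (5.13 Mb) and the MYF5 list from 28442495 to 33538938 (5.10 Mb). The peak numbers of both lists ran on by 1 across it. Genes of that stretch, TUBB among them, have no value here.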
